A study of Mus musculus with 2 samples.

Results

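The variable (V) gene segments of the T cell receptor were followed in CD45-positive cells from tumours of MC38, a cell line from a mouse colon cancer, in female C57BL/6 mice. The members were all 176 of the 32285 genes in the count matrices whose symbol begins with Trav, Trbv, Trdv, Trgv or Tcrg-V. They comprised 128 alpha chain segments (Trav), 35 beta chain segments (Trbv) and 13 segments of the gamma and delta chains. One library came from tumours of mice given LC427 (the labels give the code name alone), and the other from tumours of mice given vehicle. Tumours of both groups were taken on day 14, dissociated, cleared of dead cells, enriched for CD45 on beads and captured with 10x 5′ chemistry. By its title, the study asked whether targeting LRBA, a protein of vesicle trafficking, leads to loss of the inhibitory receptor CTLA4 and to immunity against tumours. The genotype field of the labels repeats the treatment, and how many mice went into each library was not stated in the labels. With 1 library per group there is no replicate, so no p-value is given. The ranges in parentheses are 95% intervals and reflect counting error alone. Those of levels and of ratios of levels treat every counted transcript as independent. Several can come from 1 cell, so these intervals leave out the spread between cells.

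A T cell assembles each receptor chain by joining 1 V segment to downstream segments, with a D segment in the beta and delta chains, and the joined V region is spliced to a constant region (C). The V segment carries the first and second loops that contact the peptide-MHC complex, and its 3′ end begins the third, the CDR3, where the joining is imprecise. Most T cells carry one productive beta chain, and the cells of 1 clone share it. A smaller lineage uses gamma and delta chains instead. Capture from the 5′ end places reads on the leader and V region, so that V segments can be counted as genes, although the CDR3 itself is not read out in a gene table.

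The 3′ ends of 4 beta segments are given first, because these 4 led usage in the CD8 or the CD4 T cells of the vehicle library. Each line holds the last 60 germline bases of the segment, read 5′ to 3′ on the plus strand of GRCm38 from the GENCODE M21 annotation, with the codon of the conserved cysteine at the start of the CDR3 in capitals. Trbv13-1 lies at chr6:41116409-41116468, Trbv2 at chr6:41047936-41047995, Trbv1 at chr6:40891826-40891885 and Trbv3 at chr6:41048769-41048828, all in the V exon.
Trbv13-1: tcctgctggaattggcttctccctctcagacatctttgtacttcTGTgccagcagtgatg
Trbv2: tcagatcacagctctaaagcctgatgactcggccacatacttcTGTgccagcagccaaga
Trbv1: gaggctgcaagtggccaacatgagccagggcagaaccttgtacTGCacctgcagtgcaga
Trbv3: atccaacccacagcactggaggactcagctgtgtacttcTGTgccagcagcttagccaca

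An alpha segment and its copies show how close alpha segments can be. Trav14-1, at chr14:53554499-53554558, led alpha usage in the vehicle library, and its copies are Trav14d-1 at chr14:52856107-52856166 and Trav14n-1 at chr14:53167119-53167178, all on the plus strand. Capitals mark the bases that differ among the 3 printed ends.
Trav14-1: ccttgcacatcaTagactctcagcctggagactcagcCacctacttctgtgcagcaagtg
Trav14d-1: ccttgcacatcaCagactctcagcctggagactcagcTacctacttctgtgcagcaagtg
Trav14n-1: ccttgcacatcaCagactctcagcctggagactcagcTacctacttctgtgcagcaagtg
Counted from the 5′ end of the printed stretch, with the Trav14-1 base first, both copies differ from Trav14-1 by T13C and C38T, an identity of 96.7%. The copies Trav14d-1 and Trav14n-1 were identical over their whole germline sequence of 415 bases.

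Copies of this kind bear on some alpha counts and not on others. All 176 members matched a gene of GENCODE M21, of which 142 are annotated as V genes and 34 as V pseudogenes. They lie on chromosome 14 (134 members, alpha and delta), chromosome 6 (35 members, beta) and chromosome 13 (7 members, gamma). The uniqueness of each member was read over windows of 90 bases, a length chosen to stand in for a read, since the read length is not stated in the labels. The median member had 60.95% unique windows among Trav and 100% among Trbv. Of the 40 members with no unique window, 39 of them Trav, 2 had a UMI in T cells, against 81 of the 136 members with at least 1 such window. Trbv13-1, Trbv2, Trbv1, Trbv3 and also Trav14-1 were unique in every window. The other 7 leading alpha segments had between 59.4% (Trav16n) and 92.1% (Trav14d-3-dv8) unique windows. Part of their reads could therefore be missing from the counts or assigned to a copy, which was not tested. Reads across the joined CDR3 differ from the germline genome, and how many of them were lost in alignment was not tested.

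The LC427 library held 28732435 UMIs and 6008 cells, at a median of 2353 UMIs per cell, and the vehicle library 33711726 UMIs and 5025 cells, at a median of 3494. Cell barcodes found in both libraries numbered 47. T cells were taken as cells with at least 1 UMI of Cd3d, Cd3e or Cd3g, genes of the CD3 complex that carries the receptor to the surface. There were 937 T cells in LC427, at a median of 2369 UMIs, and 748 in vehicle, at a median of 3059. T cells with Cd8a or Cd8b1 UMIs and no Cd4 UMI are called CD8 here (423 in LC427, 333 in vehicle), and those with Cd4 UMIs only are called CD4 (89 in LC427, 74 in vehicle). The remaining T cells, 425 in LC427 and 341 in vehicle, had both co-receptors or neither. All 10 listed T cell markers were detected in the T cells of both libraries, and their summed level was 1723 CPM (UMIs per 1e6 UMIs) in LC427, against 2372 CPM in vehicle. The 9 macrophage markers were detected too, and summed to 2416 CPM in LC427 T cells and 2142 CPM in vehicle T cells. Within CD8 T cells the same 9 genes summed to 1306 CPM in LC427 and 719 CPM in vehicle, and within CD4 T cells to 2354 CPM in LC427 and 1312 CPM in vehicle. The part of these differences in the V segment levels was not tested beyond the values without mixed cells given below. The 6 NK markers summed to 249 CPM in LC427 T cells and 494 CPM in vehicle T cells.

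V segment transcripts were sparser in the LC427 T cells than in the vehicle T cells, for the sums of alpha, of beta and of gamma and delta segments. T cells held 198 V segment UMIs in LC427 and 479 in vehicle, or 57.9 CPM in LC427 against 141 CPM in vehicle, a ratio of 0.410 (0.346 to 0.485). Beta segments stood at 30.4 CPM (24.9 to 36.9) in LC427 and 84.1 CPM (74.6 to 94.4) in vehicle, a ratio of 0.362 (0.286 to 0.455). For alpha segments the level was 18.1 CPM in LC427 and 40.4 CPM in vehicle, a ratio of 0.449 (0.327 to 0.610). Gamma and delta segments together stood at 9.36 CPM in LC427 and 16.8 CPM in vehicle, a ratio of 0.557 (0.349 to 0.873). None of these 4 intervals reached 1, though they leave out the spread between cells. The gamma and delta sum was not lower in every part. Trgv2, one of its segments, had 23 UMIs in LC427 and 22 in vehicle. In CD8 T cells the gamma and delta ratio was 0.846 (0.361 to 1.94). Cells of both libraries thinned at random to 1000 UMIs each, with T cells gated again afterwards, gave a beta ratio of 0.636 (0.377 to 1.06) from the few UMIs left. Counting every cell equally at its full depth gave 0.402.

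**Figure D1:**
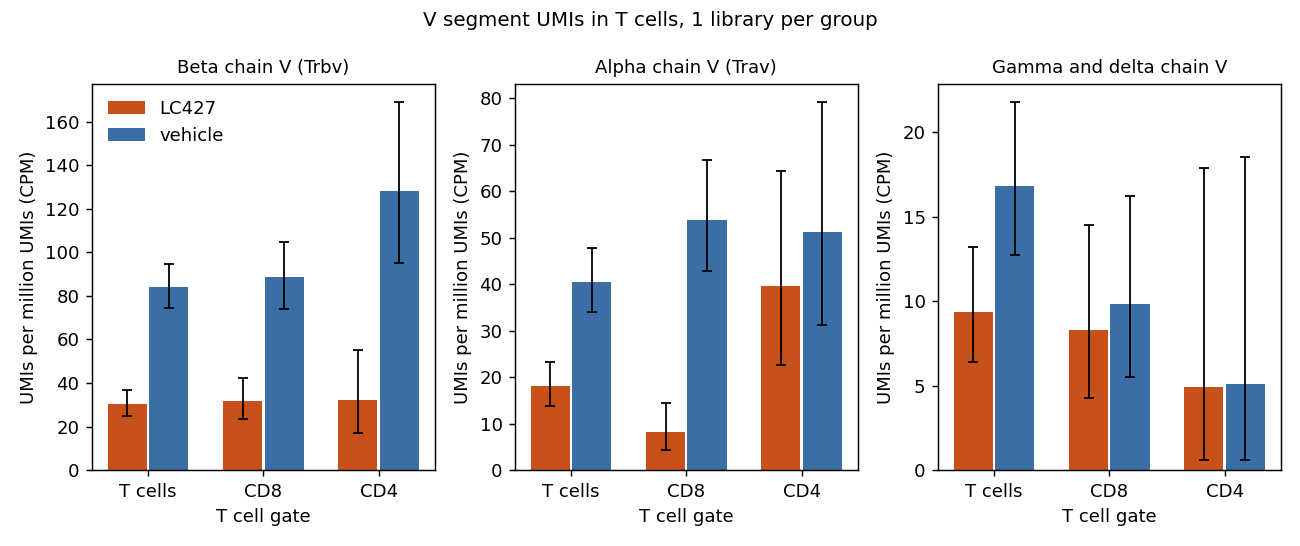
UMIs of beta, alpha and gamma or delta V segments as CPM, summed over all T cells, CD8 T cells and CD4 T cells, with LC427 left of vehicle. Bars are 1 library each and error bars are exact 95% Poisson intervals. The beta bars of LC427 sit between 30.4 and 32.2 CPM, those of vehicle between 84.1 and 128 CPM.

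Within bands of sequencing depth the total over all V segments was lower in LC427 in each of 3 bands, by different amounts. Among T cells with at least 1000 and under 2000 UMIs the ratio of V segment CPM, LC427 over vehicle, was 0.574 (0.380 to 0.867). Among those with at least 2000 and under 4000 UMIs it was 0.503 (0.351 to 0.715), and among those with 4000 UMIs or more 0.331 (0.261 to 0.417). By chain the intervals were wider, and some contained 1. The beta ratio was 0.570 (0.305 to 1.06) in the lowest band, 0.324 (0.179 to 0.566) in the middle band and 0.349 (0.259 to 0.464) in the highest. The alpha ratio was 0.591 (0.299 to 1.17) in the lowest band, 0.805 (0.422 to 1.54) in the middle band and 0.262 (0.155 to 0.423) in the highest. Beta segments taken without Trbv13-1 and Trbv2 stood at 28.1 CPM in LC427 and 61.6 CPM in vehicle, a ratio of 0.456 (0.354 to 0.583), so the level was lower without those 2 segments too. Leaving out T cells in which myeloid genes held at least 1% of UMIs gave 0.404 (0.339 to 0.479) for all V segments.

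Transcripts of the alpha and beta constant regions were also lower in LC427 T cells, but by less than the alpha and beta V segments. Trac, the alpha constant region, stood at 273 CPM in LC427 and 355 CPM in vehicle, a ratio of 0.769 (0.705 to 0.839). The beta constant regions Trbc1 and Trbc2 together stood at 486 CPM in LC427 and 687 CPM in vehicle, a ratio of 0.708 (0.664 to 0.754). Per 100 Trbc UMIs there were 6.26 Trbv UMIs in LC427 and 12.2 in vehicle, and the ratio of these quotients was 0.511 (0.405 to 0.642). Per 100 Trac UMIs there were 6.65 Trav UMIs in LC427 and 11.4 in vehicle, with a ratio of 0.584 (0.425 to 0.793). After thinning the beta quotient ratio was 0.802 (0.475 to 1.34). This did not hold for the gamma and delta chains, whose constant regions had a ratio of 0.483 (0.315 to 0.728) for Trdc and 0.447 (0.324 to 0.611) for the gamma constant regions together. Whether the alignment or amplification of the 2 libraries differed was not tested.

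Of a list of 30 genes of the receptor complex and its proximal signalling, all had at least 20 UMIs in T cells of the 2 libraries together. None was at least 1.5-fold higher in LC427 and 9 were at least 1.5-fold lower, with a median log2 ratio of -0.41, against 11.7% of all measured genes higher, 7.25% lower and a median of 0.07. Those 9 were Trbc1, Trdc, Tcrg-C1, Tcrg-C2, Tcrg-C4, the CD3 chains Cd3g and Cd247, the costimulatory receptor Cd28 and the kinase Lck. Cd3g, which belongs to the gate, stood at 211 CPM in LC427 and 388 CPM in vehicle. Cd8b1, a co-receptor chain, stood at 171 CPM in LC427 and 185 CPM in vehicle, a ratio of 0.924 (0.824 to 1.04).

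Single segments were thinly covered. At least 1 UMI was found in T cells for 56 members in LC427 and 73 in vehicle, 83 in either, and 93 members had none. Of the 34 pseudogenes, 4 had a UMI. Only 12 members reached 20 UMIs over the 2 libraries, and 8 of these were at least 1.5-fold lower and 1 at least 1.5-fold higher in LC427, with a median log2 ratio of -1.16. Across all 10577 genes measured by the same rule, 7.25% were at least 1.5-fold lower and 11.7% at least 1.5-fold higher, and the median log2 ratio was 0.07. With no minimum, 8.07% of 16187 genes were lower and 11.5% higher. A segment that is high in 1 library can pass the 20 UMI minimum through that library, so the 12 do not stand for all members.

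The beta segments differed widely in how far they fell short. Trbv13-1 had 2 UMIs in LC427 T cells and 42 in vehicle T cells, a CPM ratio of 0.0472 (0.0055 to 0.182). Trbv3 had 5 UMIs in LC427 and 31 in vehicle, a ratio of 0.160 (0.0486 to 0.415), and Trbv2 6 UMIs in LC427 and 34 in vehicle, a ratio of 0.175 (0.0601 to 0.422). These 3 segments lie at the lower end of the beta range. Trbv13-2 had 9 UMIs in LC427 and 25 in vehicle, and Trbv1 12 in LC427 and 28 in vehicle, with ratios of 0.357 (0.147 to 0.791) and 0.425 (0.197 to 0.863). Trbv16 (9 UMIs in LC427, 19 in vehicle) and Trbv12-2 (9 in LC427, 14 in vehicle) had intervals that contain 1. At the other end, Trbv29 had 12 UMIs in LC427 and 11 in vehicle, and Trbv20 14 UMIs in LC427 and 9 in vehicle, a ratio of 1.54 (0.622 to 4.04). The intervals of Trbv29 and Trbv20 contain 1 too.

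Usage was then read per cell. A cell was given the Trbv segment with most UMIs, 1 UMI being enough and ties left without a call. This gave a beta call to 74 T cells in LC427 (7.90%) and 150 in vehicle (20.1%), with 5 ties in LC427 and 9 in vehicle. The call rests on a single UMI in 86.1% of LC427 cells with a beta UMI and in 67.3% of such vehicle cells, and the highest count in a cell was 4 UMIs in LC427 and 7 in vehicle. UMIs of more than 1 beta segment were found in 8 of 79 cells with any in LC427 (10.1%) and in 20 of 159 in vehicle (12.6%).

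Among T cells with a beta call, Trbv13-1 and Trbv2 led in vehicle, while no segment was called in more than 8 cells in LC427. The 2 leading segments held 21.6% of calls in LC427 and 28.7% in vehicle. Trbv13-1 was called in 2 of 74 cells in LC427 (2.70%, Clopper-Pearson 0.329 to 9.42) and in 24 of 150 in vehicle (16.0%, 10.5 to 22.9), a share ratio of 0.169 (0.041 to 0.696). It was the 1 segment with at least 10 called T cells in a library whose interval left out 1. No LC427 segment reached 10 cells, so this minimum could be passed through vehicle alone. Among segments with fewer cells, Trbv26 was called in 6 cells in LC427 and 2 in vehicle, a share ratio of 6.08 (1.26 to 29.4). The share ratio of Trbv20 was 3.24 (1.10 to 9.57), though its odds interval contained 1. Both shares were higher in LC427. Trbv2 was called in 5 cells in LC427 (6.76%) and 19 in vehicle (12.7%), a share ratio of 0.533 (0.207 to 1.37). Trbv1 held almost the same share of calls, with 8 cells in LC427 (10.8%) and 17 in vehicle (11.3%). The other leading segments were called in few cells. Trbv13-2 was called in 6 cells in LC427 and 13 in vehicle, Trbv16 in 8 in each library, and Trbv3 in 4 in LC427 and 12 in vehicle. Trbv12-2 was called in 7 cells in each library, and Trbv20 in 8 in LC427 and 5 in vehicle.

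**Figure D2:**
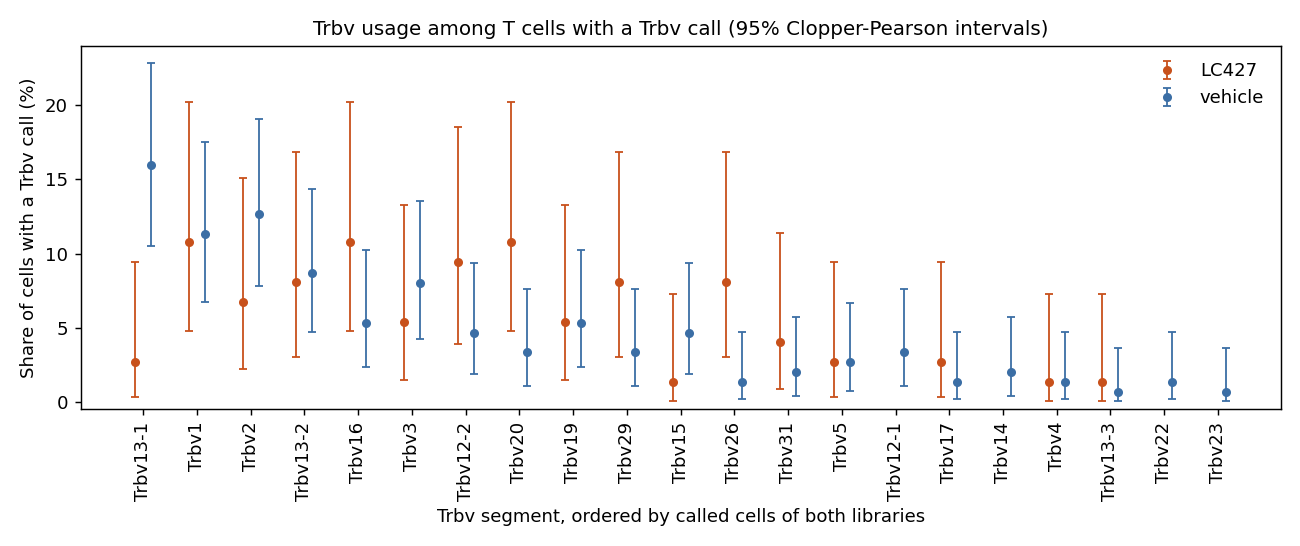
Share of T cells with a beta call that were assigned to each Trbv segment, with LC427 left of vehicle at each segment. Points are 1 library each, bars are 95% Clopper-Pearson intervals, and a segment with no called cell in a library has no point there. Trbv13-1 holds 2.70% in LC427 and 16.0% in vehicle.

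The evenness of usage was summarised by the effective number of segments, the inverse of the chance that 2 called cells carry the same segment. In all T cells it was 15.2 (12.7 to 18.9) in LC427, over 17 segments called, and 12.8 (10.7 to 16.0) in vehicle, over 21 segments called. The intervals overlap. At 74 called cells, the number in LC427, the 150 vehicle cells would show 18.5 segments, against 17 in LC427.

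In CD8 T cells the estimated evenness of beta usage was higher in LC427 than in vehicle, with 15 segments called in LC427 and 16 in vehicle. The effective number was 16.6 (10.99 to 33.9) in LC427, from 31 called cells, and 7.38 (5.58 to 10.9) in vehicle, from 82 called cells, and these intervals lie next to each other without overlap. The difference itself was not tested. Of the called CD8 cells, 17 of 31 in LC427 and 70 of 82 in vehicle had a Trac UMI. Calls from a single UMI were more frequent among LC427 T cells, and their part in the effective numbers was not tested. After thinning the number was 36 in LC427 and 5.14 in vehicle, neither with a finite upper bound, and with calls at 2 UMIs it was 4.04 (2.65 to 8.48) in vehicle. The 2 leading segments held 29.0% of calls in LC427, where Trbv12-2 led with 5 cells, and 48.8% in vehicle, where Trbv13-1 and Trbv2 led. At 31 called cells, 15 segments were seen in LC427 and 11.5 would be seen in vehicle. Trbv13-1 was called in 0 of 31 CD8 cells in LC427 (0 to 11.2%) and in 22 of 82 in vehicle (26.8%, 17.6 to 37.8). With LC427 set at 3 cells, the floor for a count of 0, its share was 2.77-fold lower in LC427. This fold follows from the substituted count and is not a lower bound. Trbv2 was called in 3 of 31 CD8 cells in LC427 (9.68%) and in 18 of 82 in vehicle (22.0%), a share ratio of 0.441 (0.140 to 1.39), whose interval contains 1. Trbv13-2 was called in 0 CD8 cells in LC427 and 7 in vehicle. In the opposite direction, Trbv1 was called in 4 CD8 cells in LC427 (12.9%) and in 1 in vehicle (1.22%), a share ratio of 10.6 (1.23 to 91.0) that rests on 1 vehicle cell.

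By level, 2 members reached 20 UMIs in CD8 T cells of the 2 libraries together, and both were lower in LC427, where 9.67% of all 8667 measured genes were. Both reached 20 UMIs through vehicle alone, which fixed their direction, so nothing is read from this count. Trbv13-1 had 0 UMIs in LC427 and 37 in vehicle, and Trbv2 3 UMIs in LC427 and 29 in vehicle. Without these 2 segments the beta level in CD8 T cells was 29.8 CPM in LC427 and 45.2 CPM in vehicle, a ratio of 0.659 (0.439 to 0.978), against 0.360 (0.252 to 0.507) with them. The level with them was 31.9 CPM in LC427 and 88.5 CPM in vehicle.

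In CD4 T cells the calls were few, and other segments led. There were 8 called cells in LC427, over 6 segments, and 21 in vehicle, over 8 segments. The effective number was 9.33 in LC427, with no finite upper bound, and 4.12 (2.65 to 9.27) in vehicle. Trbv1 was called in 1 of 8 cells in LC427 and in 9 of 21 in vehicle (42.9%), and Trbv3 in 1 of 8 in LC427 and in 6 of 21 in vehicle (28.6%). Together these 2 held 71.4% of CD4 calls in vehicle. In LC427, Trbv29 led with 3 of 8 cells. The beta level in CD4 T cells was 32.2 CPM (17.1 to 55.02) in LC427 and 128 CPM (95.1 to 169) in vehicle, a ratio of 0.251 (0.125 to 0.469). With 8 called cells in LC427 a difference in usage was not detectable, as the share ratio of Trbv1 was 0.292 (0.0437 to 1.95) and that of Trbv3 0.438 (0.062 to 3.09).

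Set against CD4 within a library, CD8 T cells of vehicle had other leading beta segments, although most segments called in CD4 cells were called in CD8 cells too. Trbv13-1 was called in 22 of 82 CD8 cells and in 0 of 21 CD4 cells in vehicle. With CD4 set at 3 cells its share was 1.88-fold higher in CD8. Trbv2 was called in 18 of 82 CD8 cells and in 0 of 21 CD4 cells, 1.54-fold higher by the same rule. Both folds follow from the substituted count and are not lower bounds. The share intervals of Trbv2, 13.6 to 32.5% in CD8 and 0 to 16.1% in CD4, overlap. Trbv1 was called in 1 of 82 CD8 cells (1.22%) and 9 of 21 CD4 cells (42.9%), a share ratio of 0.0285 (0.0038 to 0.212). Trbv3 was called in 1 of 82 CD8 cells and 6 of 21 CD4 cells, a share ratio of 0.0427 (0.0054 to 0.336). The ratios for Trbv1 and Trbv3 each rest on 1 CD8 cell. By level, 3 members reached 20 UMIs over the CD8 and CD4 T cells of vehicle, with Trbv13-1 and Trbv2 higher in CD8 (20.3% of 7575 genes were) and Trbv3 lower (19.3% of genes were). Trbv13-1 and Trbv2 had 0 UMIs in CD4 cells and passed through CD8 alone, so nothing is read from this count. In LC427 no member reached 20 UMIs over its CD8 and CD4 T cells, so the same comparison was not possible there.

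**Figure D3:**
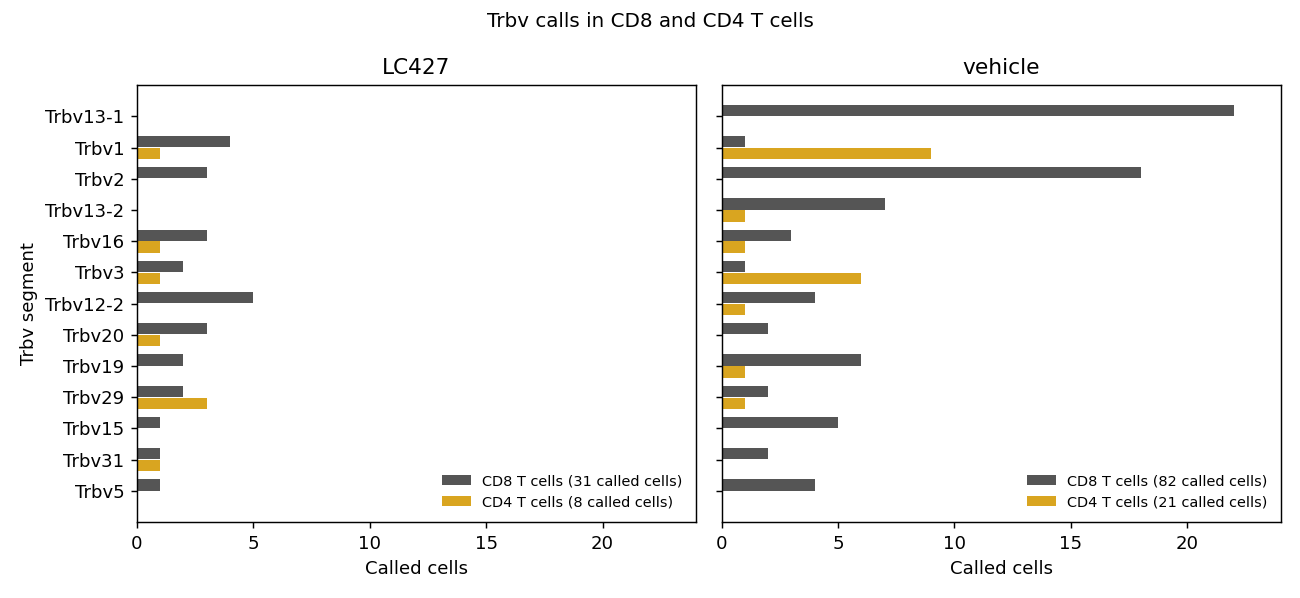
Number of CD8 and CD4 T cells called for each Trbv segment, LC427 in the left panel and vehicle in the right, for segments with at least 4 such cells over the 2 libraries. In vehicle, Trbv13-1 (22 cells) and Trbv2 (18 cells) are called in CD8 cells and in 0 CD4 cells, and Trbv1 and Trbv3 mostly in CD4 cells.

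The ratio of effective numbers, CD8 over CD4, was 1.78 in LC427 (no finite interval, from 8 CD4 calls) and 1.79 (0.881 to 3.65) in vehicle. The direction was not stable, since the vehicle ratio was 0.661 (0.164 to 2.66) with calls at 2 UMIs and 5.14 after thinning, and the LC427 ratio was 0.589 in T cells with a Trac UMI. At 21 called cells, 9.52 segments would be seen among vehicle CD8 cells, against 8 among vehicle CD4 cells. At these numbers a difference in evenness between CD8 and CD4 T cells was not detectable.

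**Figure D4:**
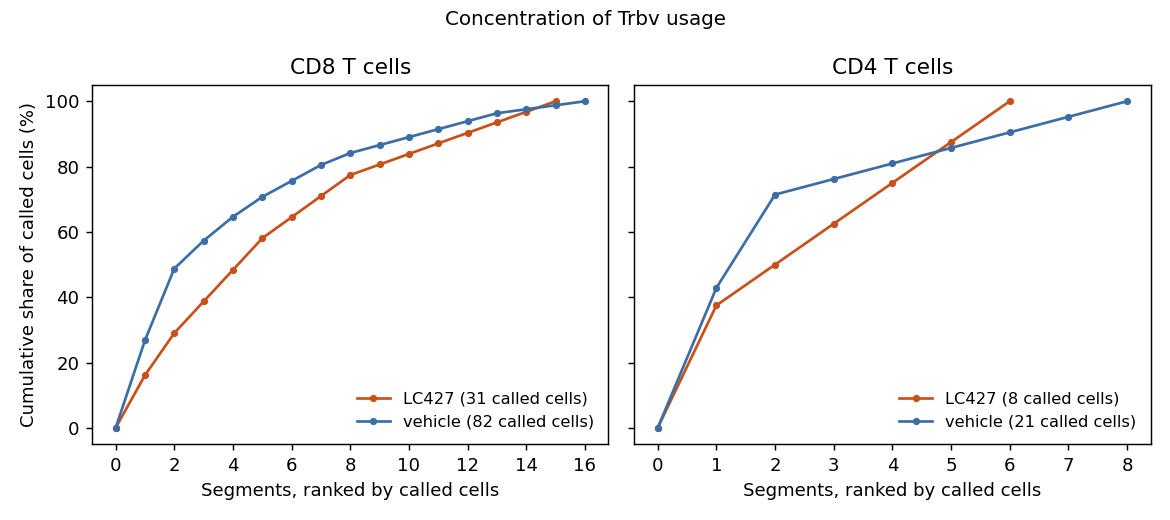
Cumulative share of called cells over Trbv segments ranked by called cells, in CD8 and CD4 T cells, for LC427 and vehicle. The first 2 segments hold 29.0% of CD8 calls in LC427 and 48.8% in vehicle, and 50.0% of CD4 calls in LC427 and 71.4% in vehicle, and the numbers of called cells differ between the libraries.

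The cells with a Trbv13-1 call in vehicle were described by other genes. Of the 24 cells, 22 were CD8 and 2 had neither co-receptor. UMIs of Mki67 or Top2a, genes of dividing cells, were found in 15 of the 24, and Pdcd1, the inhibitory receptor PD-1, in 13. Foxp3, the regulator of regulatory T cells, was found in 0. The 42 vehicle CD8 cells called for segments other than Trbv13-1 and Trbv2 had Mki67 or Top2a UMIs in 27 and Pdcd1 UMIs in 19. The Trbv13-1 cells held 41 Trbc1 and 99 Trbc2 UMIs. Only Trbc2 was seen in 15 of them, only Trbc1 in 2 and both in 7. The 42 other CD8 cells also held more Trbc2 than Trbc1 UMIs, 194 against 92. Only Trbc2 was seen in 18 of those 42, only Trbc1 in 4 and both in 19.

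The 19 vehicle cells called for Trbv2 had more Trbc1 than Trbc2 UMIs. They held 47 Trbc1 and 35 Trbc2 UMIs, with only Trbc1 in 4 cells, only Trbc2 in 2 and both in 10. Mki67 or Top2a was found in 10 of the 19 and Pdcd1 in 12. The 17 vehicle cells called for Trbv1, 9 of them CD4, had Foxp3 UMIs in 5, and the 12 called for Trbv3, 6 of them CD4, in 1. In LC427 the 8 Trbv1 cells were 4 CD8 and 1 CD4, with 3 lacking both co-receptors, and 0 had a Foxp3 UMI.

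Alpha segments were spread thinly over many members. An alpha call was made in 51 T cells in LC427, over 29 segments, and in 83 in vehicle, over 38 segments. The effective number was 26.0 (15.6 to 77.7) in LC427 and 27.7 (19.8 to 46.1) in vehicle, and at 51 called cells 28.4 segments would be seen in vehicle, against 29 in LC427. Trav3-3 was called most over the 2 libraries, in 8 cells in LC427 and 6 in vehicle. Of its cells, 0 were CD8 and 4 CD4 in LC427, whereas 4 were CD8 and 1 was CD4 in vehicle. Trav14-1 was called in 1 cell in LC427 and 9 in vehicle, 7 of those CD8. Trav16n was called in 1 cell in LC427 and 8 in vehicle, 6 of those CD8, Trav14d-3-dv8 in 3 in LC427 and 5 in vehicle, and Trav13-1 in 1 in LC427 and 5 in vehicle. Trav8n-2 was called in 4 cells in LC427 and 1 in vehicle, Trav14-2 in 3 in LC427 and 2 in vehicle, and Trav10 in 3 in LC427 and 1 in vehicle. Members named as d copies received 10 calls in LC427 and 15 in vehicle, and n copies 8 in LC427 and 16 in vehicle.

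In CD8 T cells the alpha level was far lower in LC427. Trav UMIs numbered 12 in LC427 and 82 in vehicle, or 8.31 CPM (4.29 to 14.5) in LC427 against 53.7 CPM (42.7 to 66.7) in vehicle, a ratio of 0.155 (0.0768 to 0.285). Thinned to 1000 UMIs per cell the ratio was 0.301 (0.0699 to 1.02), and with every cell weighted equally 0.183. Per Trac UMI the ratio was 0.222 (0.110 to 0.409). In CD4 T cells the alpha level was 39.6 CPM in LC427 and 51.3 CPM in vehicle, a ratio of 0.773 (0.374 to 1.57). CD8 over CD4, the alpha ratio was 0.210 (0.091 to 0.473) in LC427 and 1.05 (0.637 to 1.80) in vehicle, and the difference between these ratios was not tested.

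The segments that mark 2 T cell lineages with fixed alpha chains were at or near 0. Trav11, used by invariant NKT cells, had 0 UMIs in the 937 T cells of LC427 and 0 in the 748 of vehicle. With the floor for a count of 0, the share of cells with a UMI would be 0.320% in LC427 and 0.401% in vehicle. Both shares follow from the substituted count and are not interval bounds. Any Trav UMI was found in only 5.76% of T cells in LC427 and 12.3% in vehicle, so these shares do not limit the size of the lineage. Only 0.4% of the windows of Trav11 were unique, so reads of this segment could be missing from the counts, and its copies Trav11d and Trav11n were at 0 as well. Trav1, used by MAIT cells, was found in 0 T cells in LC427 and 2 in vehicle.

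Alpha and beta calls were seldom made in the same cell, in 9 T cells in LC427 and 27 in vehicle. Every pair in LC427 was found once. In vehicle, Trbv2 with Trav14-1 was found in 6 cells, 22.2% of the paired cells (8.62 to 42.3), of which 5 were CD8, 4 had a Mki67 or Top2a UMI and 4 a Pdcd1 UMI. Trbv2 with Trav7-4 was found in 2 vehicle cells, both CD8, and 0 vehicle cells called for Trbv2 held UMIs of both Trav14-1 and Trav7-4. With calls at 2 UMIs, and after thinning, no pair was left in 3 or more vehicle cells. A shared pair of V segments does not show that cells are of 1 clone, since the CDR3 was not read.

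Among gamma and delta segments, Trgv2 was the most abundant, and it did not differ between the libraries beyond counting error. It had 23 UMIs in 20 T cells in LC427 and 22 UMIs in 19 T cells in vehicle, a CPM ratio of 1.04 (0.552 to 1.95). Trdc, the delta constant region, was found in 3 of the 20 Trgv2 cells in LC427 and 5 of the 19 in vehicle, and Trac in 10 in LC427 and 8 in vehicle. The other members were at low levels. Tcrg-V1 had 3 UMIs in LC427 and 10 in vehicle. Trdv2-2 had 2 in LC427 and 9 in vehicle, as did Trdv4. Tcrg-V4 had 0 in LC427 and 4 in vehicle, Tcrg-V6 1 in each, Trdv5 1 in each and Trdv3, a pseudogene, 0 in LC427 and 1 in vehicle. Seen in 0 T cells of both libraries were Trdv1, Trdv2-1, Tcrg-V3, Tcrg-V5 and Tcrg-V7.

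Background was read in macrophages, which do not rearrange receptor genes. Cells with no Cd3 or Ncr1 UMI and with UMIs of at least 3 macrophage genes numbered 3054 in LC427, at a median of 2714 UMIs, and 3105 in vehicle, at a median of 3906. A V segment UMI was found in 14 of them in LC427 (0.458%) and 15 in vehicle (0.483%), against 15.5% of T cells in LC427 and 32.6% in vehicle. Thinned to 1000 UMIs with the gates kept, the share was 6.51% of T cells and 0.229% of macrophages in LC427, and 11.9% of T cells and 0.129% of macrophages in vehicle. For beta segments the unthinned share was 8.43% of T cells (6.73 to 10.4) and 0 of 3054 macrophages in LC427, and 21.3% of T cells (18.4 to 24.4) and 0.161% of macrophages in vehicle. Beta shares stood above those of this gate in both libraries, a contrast that the gates partly set. Macrophage barcodes that also held a Cd3 UMI were counted as T cells, and the background they would add was not measured. By level, 1 of 1 members that reached 20 UMIs over T cells and macrophages in LC427 was higher in T cells (26.1% of all genes were), and 6 of 6 in vehicle (32.2% of all genes were). These members passed through T cells alone, so nothing is read from this count.

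Macrophages held 12 alpha and 0 beta UMIs in LC427 and 8 alpha and 5 beta UMIs in vehicle, whereas T cells held 62 alpha and 104 beta UMIs in LC427 and 137 alpha and 285 beta UMIs in vehicle. The 12 alpha UMIs of LC427 macrophages were in 12 cells. Droplets with 10 to 100 UMIs, taken as empty, had V segments at 27.9 CPM in LC427 and 31.4 CPM in vehicle. Alpha segments stood there at 11.4 CPM in LC427 and 7.32 CPM in vehicle, and beta segments at 11.4 CPM in LC427 and 19.8 CPM in vehicle.

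Cells with an Ncr1 UMI and no Cd3 UMI, an NK gate, held constant region transcripts without alpha or beta V segments. Trbc UMIs were found in 61.3% of 31 such cells in LC427 and 73.5% of 117 in vehicle, while Trav and Trbv had 0 UMIs in both libraries. The upper bound on the share with a beta UMI was 11.2% in LC427 and 3.10% in vehicle. The gates differ in purity, since the 9 macrophage markers summed to 8044 CPM in the LC427 gate and 778 CPM in the vehicle gate, whose part in these shares was not tested. Gamma or delta V UMIs were found in 3.23% of the gate in LC427, 1 cell, and in 13.7% in vehicle, 16 cells. The level of Trbc in vehicle was 329 CPM in the NK gate and 687 CPM in T cells, a ratio of 0.478 (0.415 to 0.550).

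**Figure D5:**
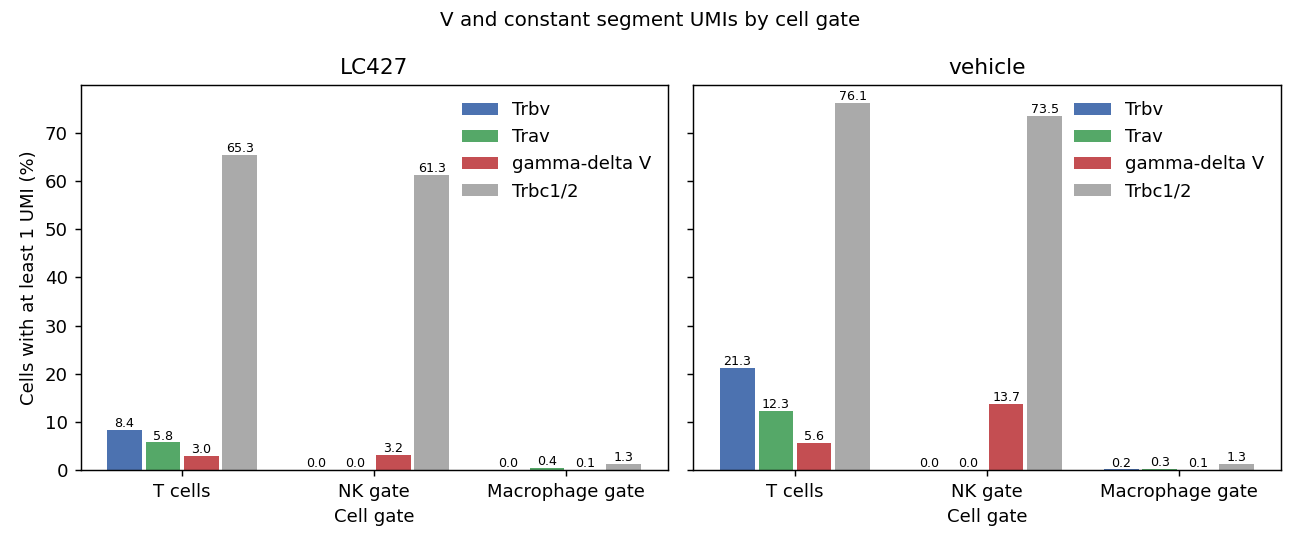
Share of cells with at least 1 UMI of beta V, alpha V, gamma or delta V, or beta constant segments, in T cells, the NK gate and the macrophage gate, LC427 in the left panel and vehicle in the right. The NK gate has Trbc UMIs in 61.3% of cells in LC427 and 73.5% in vehicle but 0 beta or alpha V UMIs.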

How the data were processed

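Single-cell 5′ libraries of CD45-positive MC38 tumour cells were analysed, 1 from LC427 and 1 from vehicle mice, grouped by their treatment label. The authors deposited unfiltered matrices of UMI counts per gene and barcode. Per the submitters' processing notes these come from Cell Ranger 3.0.1 and Seurat 3 on GRCm38 (mm10), whereas per the file headers Cell Ranger 4 was used, so the version is uncertain. The authors' own cluster tables were not used, as they map no cell to a cluster.

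A barcode counted as a cell from 1000 UMIs and 400 genes up, with mitochondrial UMIs of 10% or less, 6328 in LC427 and 5245 in vehicle. Scrublet (scanpy 1.11.5) called 0 doublets in both libraries and was taken not to have worked, so the barcodes with the highest scores were left out at 0.8% per 1000 cells, 320 in LC427 and 220 in vehicle. Gates on named genes replaced clustering, so a gate is not a cell type. UMI counts were summed per gate and divided by the gate's total (CPM). Ratios have exact conditional binomial 95% intervals, shares Clopper-Pearson intervals and effective numbers delta-method intervals. A gene was measured at 20 UMIs over the 2 groups and called at a 1.5-fold difference, with counts under 3 set to 3. The fold calls, the ratio intervals, the effective number and the rule for segment calls were tested on simulated or constructed counts. Cell limits, doublet removal, gates, thinning and the delta-method intervals were not. Python 3.11.15, numpy 2.4.6, scipy 1.17.1 and pandas 2.3.3 were used. PCR copies were collapsed by UMI in the deposited counts, so intervals cover counting error only. Those of CPM and CPM ratios treat UMIs as independent and leave out the spread between cells.

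Named were the 8 Trbv and the 8 Trav segments with most called T cells, segments of at least 10 called cells in 1 library whose share differed at least 1.5-fold with an odds interval that leaves out 1, gamma and delta segments of at least 10 UMIs, the leading pairs, Trav11 and Trav1. Trbv26, Trbv29 and the gamma and delta segments of fewer UMIs were named after their values were seen. Members, lists and rules were chosen with earlier results of these data known. Alternatives changed the cell limits, doublet removal, the T cell gate, depth, the call rule, the scaling and the background cells. Those with a Trac UMI, without Ncr1 and with equal cell weights were chosen after seeing the data.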

Additional observations from a re-analysis of the deposited data

Results flagged for a closer look

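In the NK gate of vehicle, delta V segments were found above the macrophage background, in cells outside the T cell comparisons. Trdv2-2 had a UMI in 12 of 117 cells (10.256%, 5.413 to 17.231), against 0 of the vehicle macrophages and 0.802% of vehicle T cells. Trdv4 had one in 3 cells (2.564%, 0.532 to 7.311) and Trdv5 in 2 (1.709%, 0.208 to 6.039), both with 0 in macrophages. In vehicle T cells the shares were 1.07% for Trdv4 and 0.134% for Trdv5. The CPM ratio of Trdv4 in vehicle, NK gate over T cells, was 1.70 (0.297 to 6.82), whose interval contains 1. The level of Trdv2-2 in vehicle was 19.6 CPM in the NK gate and 2.65 CPM in T cells, a ratio of 7.38 (2.92 to 19.6). In LC427 the gate held 1 Trdv2-2 UMI over 31 cells.

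The alpha V level of CD8 over CD4 T cells differed between the 2 libraries, with a ratio of 0.210 in LC427 and 1.048 in vehicle. The intervals, 0.091 to 0.473 in LC427 and 0.637 to 1.805 in vehicle, do not overlap, but the difference itself was not tested, and it rests on 12 CD8 and 16 CD4 UMIs in LC427.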

How the results depend on the processing

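With 1 library per group there was no replicate to leave out. No paired analysis was possible because each group has 1 library and no test was run. Among values of the comparisons 215 stayed close to those reported and 38 moved. No ratio whose interval left out 1 changed direction. The vehicle CD8 to CD4 ratio of effective numbers, whose interval contains 1, fell below 1 with calls at 2 UMIs, and the LC427 ratio did with a Trac UMI (0.589). The alpha effective number, lower in LC427 as reported, was higher there by subfamily and under several other alternatives, with overlapping intervals in each.

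Thinned to 1000 UMIs, the LC427 over vehicle ratio was 0.609 for all V segments, 0.636 for beta, 0.301 for CD8 alpha and 0.802 for beta per Trbc UMI. The share of T cells with a beta call was 3.92% in LC427 and 5.84% in vehicle, that of macrophages with a V UMI 0.167% in LC427 and 0.159% in vehicle. The CD8 effective number was 36 in LC427 and 5.14 in vehicle, whose CD8 to CD4 ratio was also 5.14. Trbv13-1 in CD8 cells was called in 0% in LC427 in every alternative. The LC427 CD8 T cells held 0 cells with a Trbv13-1 UMI to begin with. Alternatives that only removed cells or UMIs could not change this, so nothing is read from their agreement.

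Calls at 2 UMIs covered 1.17% of T cells in LC427 and 6.42% in vehicle. The effective number was then 11 in LC427 and 9.40 in vehicle, and 4.04 in vehicle CD8 cells, with a CD8 to CD4 ratio of 0.661. Trbv13-1 held 42.9% of vehicle CD8 calls. Repeated pairs in vehicle were 0% at 2 UMIs and after thinning.

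The share with a beta call was 9.89% in LC427 and 23.9% in vehicle at 2 Cd3 UMIs, 9.95% in LC427 and 25.7% in vehicle at 2000 UMIs, and 10.2% in LC427 and 25.7% in vehicle with a Trac UMI. The segment with most calls over both libraries was Trbv13-1, with 2.70% of calls in LC427. It was Trbv1 with all barcodes kept (13.6% of calls in LC427), after thinning (12.0%) and without Ncr1 (11.1%), and at 2 UMIs it was Trbv13-1, with 0% in LC427. Subfamilies gave 8.90 for vehicle beta, 5.43 for vehicle CD8 beta, and for alpha 11.8 in LC427 and 9.20 in vehicle. Equal cell weights gave 0.487 for all V segments. As background, the NK gate gave 3.23% in LC427 and 13.7% in vehicle, and all vehicle cells without Cd3 UMIs 1.57%. The Trac, Ncr1 and equal-weight alternatives were chosen after seeing the data.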

Other observations

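No alpha V segment was seen in the vehicle cells called for Trbv13-1. A Trav UMI was found in 0 of these 24 cells (0 to 14.2%), although 20 had a Trac UMI, whereas 9 of the 19 vehicle cells called for Trbv2 (47.4%, 24.4 to 71.1) and 22 of the 107 called for other beta segments (20.6%, 13.4 to 29.5) had one. Trac UMIs numbered 44 in the 24 Trbv13-1 cells and 91 in the 19 Trbv2 cells. In LC427, 0 of the 31 CD8 cells with a beta call had a Trav UMI (0 to 11.2%), and 17 of them had a Trac UMI. Among vehicle CD8 cells, a Trav UMI was found in 0 of the 22 called for Trbv13-1. It was found in 21 of the 60 called for other beta segments (35.0%, 23.1 to 48.4), of which 52 had a Trac UMI. These counts were looked up after the values were seen.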
